A study of Mus musculus with 3 samples.

Results

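The genes described here were 41 genes of folding, quality control and export in the endoplasmic reticulum (ER), measured in the mouse line ST2, bone marrow stromal cells able to become osteoblasts or adipocytes. They were chosen by name, among the 51826 genes of the expression table, by the known functions of their products but with earlier results of these data in view, so the counts below describe them and are no independent evidence of a direction. Each had a value in all 3 libraries. They fell into 8 roles, namely lumenal chaperones, HSP40 co-chaperones, disulfide enzymes, proline isomerases, stress sensors with their factors, ER-associated degradation, the translocon and the COPII coat. The cells of every group were transfected with Lipofectamine 3000, and each siRNA was given at 30 nM. Empty vector with a control siRNA made the control library, a NELL2 expression construct with the control siRNA the NELL2 overexpression library, and empty vector with siRNA against Fn1 the Fn1 knockdown library. There was 1 library a group, so no value below has a replicate error and every difference is between libraries, not between conditions. NELL2 is a secreted glycoprotein and Fn1 encodes fibronectin, a large matrix protein that itself passes through the ER. The question put to the data was how the ER genes stood in cells given the NELL2 construct and in cells with little Fn1 message.

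Proteins bound for the cell surface or the matrix enter the ER through the Sec61 channel, are folded there by chaperones and by enzymes that form disulfide bonds or turn proline bonds, and leave in vesicles coated by COPII. Misfolded chains are drawn back to the cytosol and degraded. When unfolded protein builds up, the sensors IRE1, PERK and ATF6 raise the folding and degradation genes, in part through the ER stress response element (ERSE) in their promoters, and stromal cells and osteoblasts carry a large ER because they secrete much collagen.

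The ERSE was looked for in RefSeq promoters (GRCm38.p6, from 250 bases before to 50 bases after the RefSeq gene start), which were found for 34 of the 41 genes. The letters searched were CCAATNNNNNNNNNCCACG on both strands, and they were present in 9 of the 34 genes (26.5%) and in 37 of all 27025 promoters of the same length (0.137%). The sites are shown as a sequence feature of these genes. The element is known from promoters of ER folding genes, so its larger share among genes chosen by such functions is no independent result. Each is written in the direction of the motif with 5 flanking bases, and the capitals mark its CCAAT and CCACG ends. The site of Hspa5 lay at chr2:34772025-34772043, 65 bases before the RefSeq gene start on the coding strand. In GENCODE, whose coordinates are used for genes below, Hspa5 begins farther upstream and holds the site. That of Creld2 lay at chr15:88819520-88819538, 126 bases before the RefSeq start on the opposite strand.
Hspa5: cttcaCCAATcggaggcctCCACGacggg
Creld2: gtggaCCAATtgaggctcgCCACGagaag
Calr: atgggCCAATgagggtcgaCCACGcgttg
Canx: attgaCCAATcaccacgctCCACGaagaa
Pdia6: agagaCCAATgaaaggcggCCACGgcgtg
Dnajc3: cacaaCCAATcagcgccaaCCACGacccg
Syvn1: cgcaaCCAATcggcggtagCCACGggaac
Hsp90b1, 107 bases before the start: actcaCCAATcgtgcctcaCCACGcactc
Hsp90b1, 212 bases before the start: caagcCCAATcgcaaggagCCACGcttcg
Derl3: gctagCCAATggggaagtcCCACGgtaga

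The related letters ATTGGNCCACG (ERSE-II) were found in 2 of the 34 promoters, against 12 of all 27025 (0.0444%), and none of these overlapped an ERSE of the same gene. The capitals below mark the motif without its free base, 52 bases before the start of Herpud1 (chr8:94386377-94386387) and 7 bases after that of Dnajb11 (chr16:22857852-22857862).
Herpud1: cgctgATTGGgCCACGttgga
Dnajb11: cggcgATTGGcCCACGcctgg

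The core of another element, TGACGTGG, was present in the promoters of Sec23a and Sec24d, and in 193 of all 27025 (0.714%). A match is a description of these letters and not a measured binding site.

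The values were FPKM, fragments scaled to transcript length and to library size. Estimated depth was 23000000 fragments for the control library, 23700000 with NELL2 overexpression and 24200000 with Fn1 knockdown, and 12220 to 12329 genes reached 1 FPKM. In the same order of libraries, Nell2 was listed at 0.64, 326 and 1.06 FPKM, and Fn1 at 2802, 2489 and 137 FPKM, so that each label had its targeted gene displaced in the labelled direction. Mitochondrially encoded genes took 7.01%, 6.03% and 5.92% of all FPKM. All 10 mesenchymal stromal markers were detected, with sums of 3002, 3218 and 2819 FPKM. The sums of the 7 haematopoietic markers with a usable value were 16.5, 18.6 and 9.24 FPKM, and Cd3e was listed at 0. Of the 4 neuron markers, which summed to 6.33, 6.20 and 12.0 FPKM, Tubb3 held 6.06, 5.96 and 11.7 FPKM and Rbfox3 was at 0, while the endothelial list summed to 1.79 to 2.0 FPKM and the epithelial list to 0.0619 to 0.15 FPKM with Epcam and Krt14 at 0. The haematopoietic and Tubb3 levels thus moved with the Fn1 knockdown library, and their part in the results below was not tested.

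Of the 41 genes, 40 reached 1 FPKM in some library and 39 were at 10 FPKM or more in all 3. The exception at the bottom was Derl3, a degradation factor listed at 0.239, 0.584 and 0.203 FPKM (about 7, 18 and 6 fragments), which was left out of the comparisons. The genes together summed to 3454 FPKM in the control library (0.866% of all FPKM), 3521 in the NELL2 overexpression library (0.883%) and 3908 in the Fn1 knockdown library (0.986%). The Fn1 knockdown library held the highest value for 35 of the 41 genes, and the other libraries for 3 each. Derl3 is among these 41, and the same count was not made over all genes. In these bulk samples more RNA per cell and more cells of a kind that expresses these genes cannot be told apart.

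**Figure D1:**
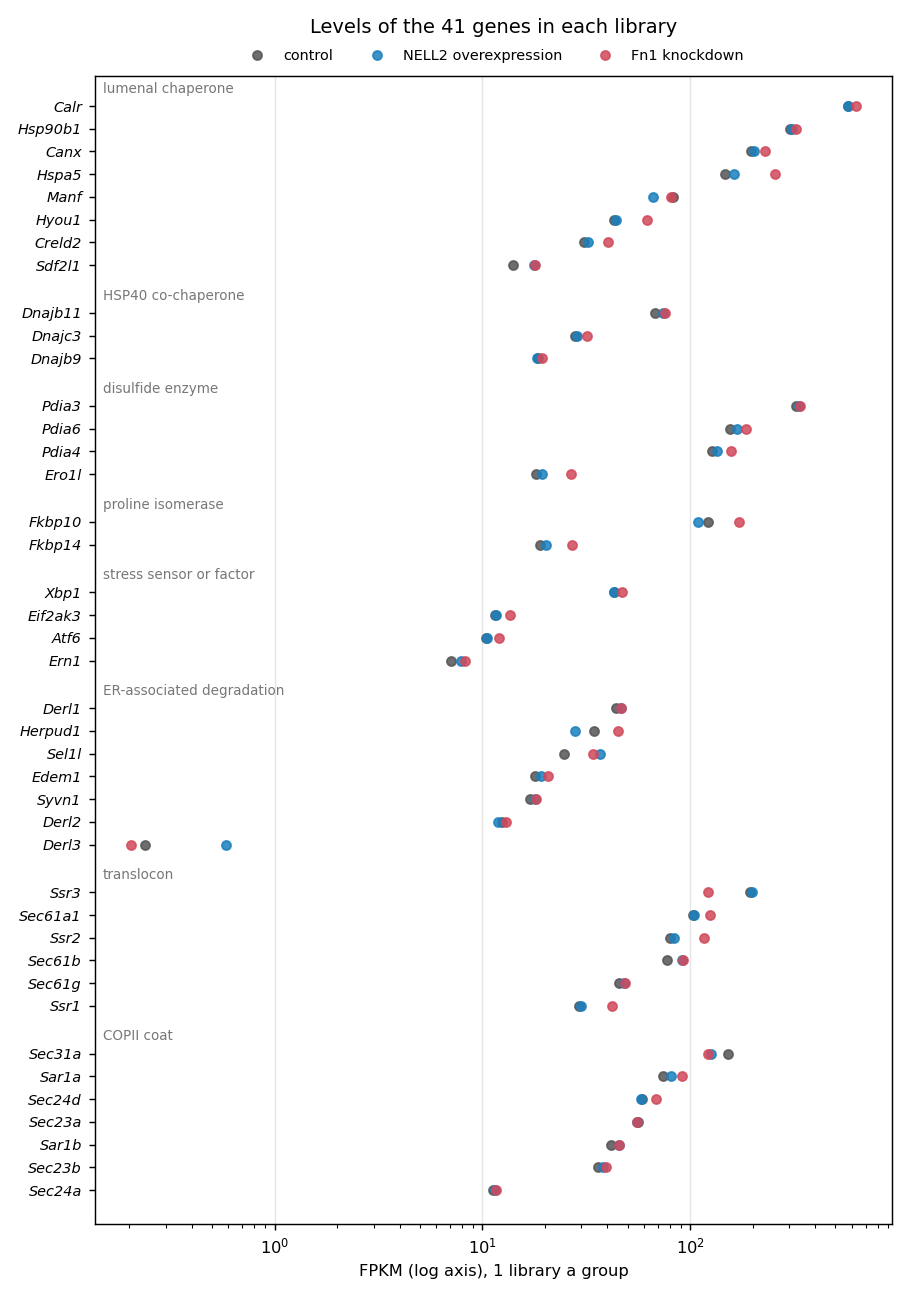
FPKM of the 41 genes (log axis) in each library (colour), 1 point a library, by role. Levels ran from below 1 FPKM for Derl3 to 629.7 FPKM for Calr. The Fn1 knockdown point was the highest for 35 genes, a count not made over all genes.

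In the Fn1 knockdown library, most of the ER genes stood above the control library, by modest amounts. Differences are given as log2(FPKM + 1). A smaller mark was set at 0.32 on this scale, where FPKM + 1 is 25% higher, or 20% lower for -0.32. Of the 40 genes above 1 FPKM, 36 were higher (90.0%, against 49.5% of all genes) and 4 lower. Their median difference was 0.20, against -0.003 over all 12574 genes tested and 0.022 over the 6421 genes at 10 FPKM or more. Of these 6421 genes, 53.9% were higher, 10.4% by the 0.32 mark, and 9.62% were lower by it. None of the 40 was past 2-fold, where 1.23% of all genes were. At the 0.32 mark, 11 of the 40 were higher (27.5%, against 10.2% of all genes) and 1 was lower (2.50%, against 12.0%). At 1.5-fold, 1 was higher (2.5%, against 2.92%) and 1 lower (2.5%, against 3.32%), so the excess of higher genes was present at the smaller mark and not at this one. The 11 were Hspa5, Hyou1, Creld2, Sdf2l1, Ero1l, Fkbp10, Fkbp14, Herpud1, Sel1l, Ssr1 and Ssr2, and the lower gene was Ssr3.

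In the NELL2 overexpression library the same genes lay close to the control. There, 31 of the 40 were higher (77.5%, against 52.3% of all genes) and 9 lower, with a median of 0.043 against 0.007 over all 12572 genes tested. None was past 2-fold, where 0.652% of all genes were. Only Sel1l was higher by the 0.32 mark (2.50% of the 40, against 5.50% of all genes), and 0 were as much lower (against 4.05%). Sdf2l1 at 0.32 and Manf at -0.32 were just short of the mark before rounding, and with a pseudocount of 0.1 the counts were 2 higher and 1 lower. The NELL2 and Fn1 comparisons share the control library, so their values are set side by side below and the agreement between them is not counted as a result.

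Set directly against the NELL2 overexpression library, the Fn1 knockdown library was higher for 37 of the 40 genes (92.5%, against 48.1% of all genes), with a median of 0.13 against -0.010 over all 12596 genes tested. None was past 2-fold (1.29% of all genes), 9 were higher by the 0.32 mark (22.5%, against 9.17%) and 1, Ssr3, was as much lower (2.50%, against 12.6%). The 9 were Hspa5, Hyou1, Creld2, Ero1l, Fkbp10, Fkbp14, Herpud1, Ssr1 and Ssr2. Of the 6432 genes at 10 FPKM or more, 52.1% were higher in this comparison, 8.99% by the 0.32 mark, and 9.84% were lower by it. Counting error alone was gauged by a 95% interval of each FPKM ratio, from fragment numbers estimated from FPKM. It holds no error between cultures, and for abundant genes it leaves out 1 at very small differences.

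**Figure D2:**
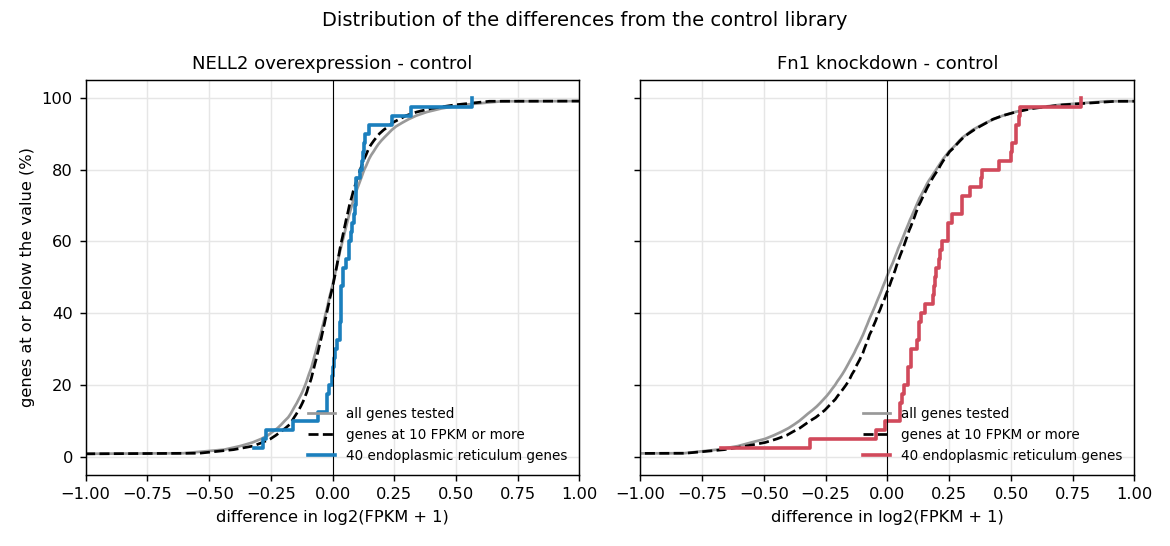
Share of genes (%) at or below each difference in log2(FPKM + 1) from the control library, for NELL2 overexpression (left) and Fn1 knockdown (right), with all genes tested (grey), genes at 10 FPKM or more (dashed) and the 40 ER genes (colour). The ER genes' curve lay to the right of the others after Fn1 knockdown, with a median of 0.20 against -0.003, and near them after NELL2 overexpression, with 0.043 against 0.007.

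Among the lumenal chaperones, 7 of 8 were higher in the Fn1 knockdown library, with a median of 0.28, and 4 passed the 0.32 mark. Hspa5 (ENSMUSG00000026864.13, GRCm38 chromosome 2, 34771970 to 34777547, plus strand) encodes BiP, the Hsp70 of the ER that also holds the stress sensors inactive. It was at 148 FPKM in the control library, at 162 with NELL2 overexpression and at 255 with Fn1 knockdown, the farthest upward of the 40 genes. The Fn1 knockdown ratio was 1.73 (95% counting interval 1.69 to 1.77), a difference of 0.79 that 188 of all 12574 genes reached. For NELL2 overexpression the ratio was 1.10 (1.07 to 1.13).

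Hyou1, an Hsp70-like protein that exchanges the nucleotide of BiP, stood at 42.8 FPKM in the control library, 43.9 with NELL2 overexpression and 61.9 with Fn1 knockdown, the order of every triplet below. Its Fn1 knockdown ratio was 1.45 (1.38 to 1.51), while the NELL2 interval, 0.977 to 1.08, held 1. Creld2, a lumenal protein induced by ER stress, was at 30.9, 32.1 and 40.4 FPKM, a ratio of 1.31 (1.20 to 1.42) for Fn1 knockdown. Sdf2l1, which works with BiP and its co-chaperones, was the least abundant chaperone and stood about equally above the control in both libraries. Its values were 14.0, 17.7 and 17.9 FPKM, with differences of 0.32 for NELL2 overexpression, just short of the mark, and 0.34 for Fn1 knockdown.

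The most abundant chaperones moved less. Calr, which holds glycoproteins through their sugars, was at 573, 573 and 629.7 FPKM, and its membrane-bound relative Canx at 197, 203 and 230.1 FPKM. The ER Hsp90, Hsp90b1, was at 303, 309.5 and 322 FPKM, a difference of 0.086 for Fn1 knockdown. Its exons overlap Gm25745, listed at 301, 303 and 308 FPKM on the same strand, so fragments could have been shared between them. Manf, a secreted factor retained by BiP, went the other way. It was at 83.1, 66.4 and 80.6 FPKM, lowest in the NELL2 overexpression library with a ratio of 0.799 (0.729 to 0.875), while its Fn1 knockdown interval, 0.889 to 1.06, held 1, and it overlaps Rbm15b, at 12.9, 11.2 and 10.9 FPKM.

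The HSP40 co-chaperones, which hand substrates to BiP, were all 3 higher in the Fn1 knockdown library, with a median of 0.15 and none past the 0.32 mark. Dnajc3 was at 28.0, 28.6 and 32.0 FPKM, Dnajb11 at 67.9, 74.1 and 75.6 FPKM, and Dnajb9 at 18.5, 18.3 and 19.4 FPKM. Dnajb11 was thus nearly as high with NELL2 overexpression (0.12) as with Fn1 knockdown (0.15), and the Dnajb9 ratio for Fn1 knockdown, 1.05 (0.94 to 1.18), was within counting error of 1.

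All 4 disulfide enzymes were higher in the Fn1 knockdown library, with a median of 0.27. Ero1l, the oxidase that recharges the disulfide isomerases, stood apart from the isomerases themselves. It was at 18.1, 19.4 and 26.7 FPKM, a ratio of 1.47 (1.36 to 1.59) for Fn1 knockdown and 1.07 (0.985 to 1.16) for NELL2 overexpression. The isomerases Pdia4, at 127, 135 and 157 FPKM, and Pdia6, at 156, 169 and 185 FPKM, differed by 0.30 and 0.25 for Fn1 knockdown. Pdia3, the isomerase that serves the calnexin cycle, was the most abundant of the 4 and the closest to the control, at 325, 335 and 337 FPKM.

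The proline isomerases had the highest median of the 8 roles for Fn1 knockdown, 0.50 over 2 genes. Fkbp10 and Fkbp14 both act on procollagen in the ER. Fkbp10 (GRCm38 chromosome 11, 100415697 to 100424824, plus strand) was at 121, 109 and 173 FPKM, with a Fn1 knockdown ratio of 1.42 (1.37 to 1.47) and a NELL2 overexpression ratio of 0.895 (0.862 to 0.93). It therefore lay on opposite sides of the control in the other two libraries, and differed by 0.66 between them. Fkbp14 was at 18.8, 20.2 and 27.1 FPKM, higher by 0.50 with Fn1 knockdown and by 0.094 with NELL2 overexpression. The collagen gene Col1a1 was at 1494, 1601 and 1352 FPKM, lowest in the library where both isomerases were highest.

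The 3 sensor genes were of low abundance, and they and the factor gene Xbp1 were all slightly higher in the Fn1 knockdown library, with a median of 0.19 and none past the 0.32 mark. Eif2ak3, the gene of PERK, was at 11.5, 11.7 and 13.5 FPKM, Ern1, that of IRE1, at 7.03, 7.89 and 8.21 FPKM, and Atf6 at 10.4, 10.5 and 12.0 FPKM. The Ern1 interval for Fn1 knockdown, 0.972 to 1.41, held 1. Xbp1, whose message IRE1 splices, was at 43.0, 43.1 and 47.1 FPKM, and the gene-level values do not separate its spliced from its unspliced form.

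In ER-associated degradation, all 6 genes tested were higher in the Fn1 knockdown library, with a median of 0.15, and the 2 past the 0.32 mark parted company in the NELL2 overexpression library. Sel1l (GRCm38 chromosome 12, 91806043 to 91849157, minus strand), the adaptor that scaffolds the ligase Syvn1, was at 24.7, 37.0 and 34.2 FPKM. It was the single gene of the 40 past the 0.32 mark with NELL2 overexpression, at a ratio of 1.5 (1.44 to 1.57), a difference of 0.57 that 217 of all 12572 genes reached. Its Fn1 knockdown ratio was 1.38 (1.33 to 1.45). Herpud1, a membrane protein that gathers the degradation complex, was at 34.3, 28.1 and 45.0 FPKM, below the control with NELL2 overexpression (0.819, 0.759 to 0.884) and above it with Fn1 knockdown (1.31, 1.23 to 1.40).

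The remaining degradation genes stayed near the control. Edem1, a lectin that picks out misfolded glycoproteins, was at 17.9, 19.2 and 20.7 FPKM, a Fn1 knockdown difference of 0.19. Syvn1, the ubiquitin ligase, was at 17.0, 17.8 and 18.2 FPKM, and its Fn1 knockdown interval, 0.993 to 1.16, held 1. The channel components Derl1, at 44.0, 46.5 and 46.7 FPKM, and Derl2, at 12.4, 11.9 and 13.0 FPKM, differed by 0.086 and 0.059, the latter with an interval of 0.914 to 1.20 that held 1.

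The translocon genes were divided in the Fn1 knockdown library, with 5 of 6 higher and a median of 0.25. The 0.32 mark was passed by 2 genes upward, Ssr1 and Ssr2, and by 1 downward, Ssr3. The translocon-associated complex beside the Sec61 channel gave both directions. Its subunit genes Ssr1, at 29.1, 29.9 and 42.2 FPKM, and Ssr2, at 79.8, 83.8 and 116 FPKM, had Fn1 knockdown ratios of 1.45 (1.34 to 1.56) and 1.46 (1.35 to 1.58). Ssr3 (ENSMUSG00000027828.12, GRCm38 chromosome 3, 65379655 to 65392623, minus strand) was at 194, 199 and 122 FPKM. Its ratio was 0.626 (0.606 to 0.646), a difference of -0.67, and 266 of all 12574 genes were as low. The fourth subunit gene, Ssr4, taken from the wider lists below, was also lower, at 86.3, 85.7 and 67.3 FPKM (-0.35). With NELL2 overexpression the differences of these 4 subunit genes lay between -0.010 and 0.069.

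The Sec61 channel genes were all above the control in the Fn1 knockdown library. Sec61a1, the pore subunit, was at 104, 104 and 124 FPKM, a difference of 0.26. Sec61b, at 77.4, 91.8 and 92.0 FPKM, was as high with NELL2 overexpression (0.24) as with Fn1 knockdown (0.25). Sec61g was at 45.3, 48.2 and 48.5 FPKM, and its Fn1 knockdown interval, 0.972 to 1.18, held 1.

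The COPII coat, which carries cargo out of the ER, had the lowest median of the roles for Fn1 knockdown, 0.12, with 5 of 7 genes higher, 2 lower and none past the 0.32 mark. The GTPase gene Sar1a, which starts coat assembly, was at 73.8, 80.7 and 91.3 FPKM (0.30). Sec24d, a cargo-binding subunit, was at 58.9, 57.9 and 68.4 FPKM (0.21). The outer cage gene Sec31a was below the control in both libraries, at 152, 126 and 122 FPKM, with ratios of 0.828 (0.791 to 0.865) and 0.804 (0.768 to 0.841).

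The other coat genes were near the control. Sar1b was at 41.7, 45.4 and 45.5 FPKM, the inner coat genes Sec23a at 56.1, 55.2 and 55.7 FPKM and Sec23b at 36.1, 38.0 and 39.6 FPKM, and Sec24a at 11.2, 11.5 and 11.6 FPKM. For Sec23a, Sec23b and Sec24a the Fn1 knockdown interval held 1.

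**Figure D3:**
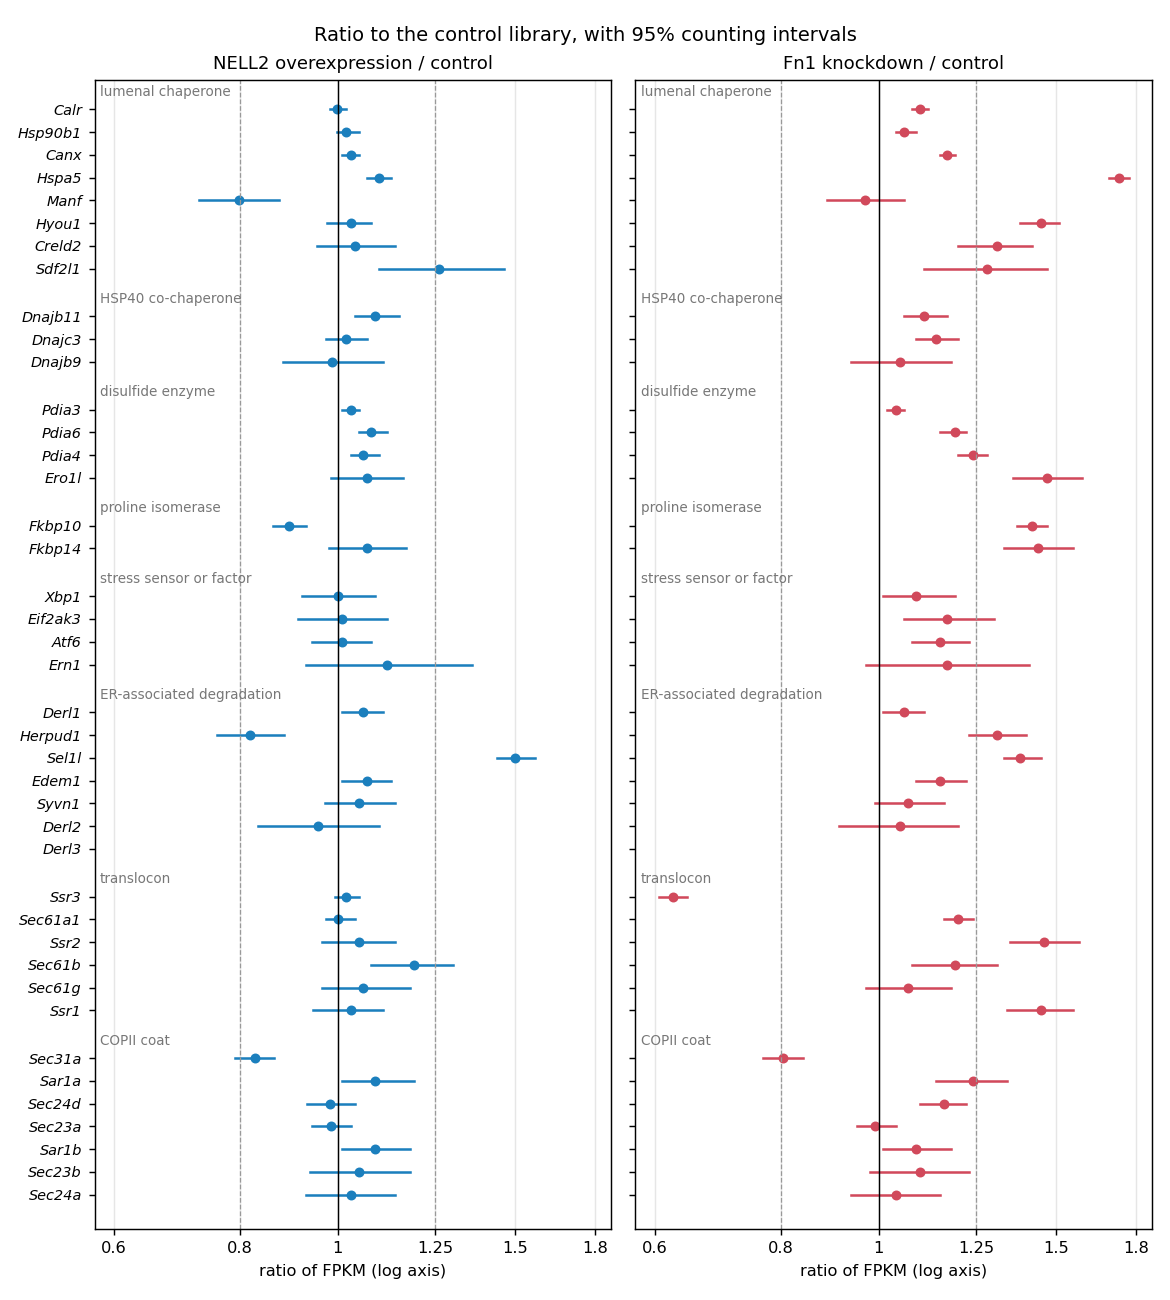
Ratio of FPKM to the control library (log axis) for the 40 genes above 1 FPKM, for NELL2 overexpression (left) and Fn1 knockdown (right), with horizontal bars for the 95% counting interval and dashed lines at 25% above and 20% below the control. Hspa5 at 1.73 and Ssr3 at 0.626 were the extremes of the Fn1 knockdown panel, and Sel1l at 1.5 was the highest of the NELL2 overexpression panel. The dashed lines are set on FPKM and the 0.32 mark on FPKM + 1. Sdf2l1 (1.26) and Manf (0.799) therefore lay past the lines with NELL2 overexpression without passing the mark.

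The genes with an ERSE were then compared with the rest of the 40. For Fn1 knockdown, 8 of the 8 genes with the motif that were tested, all but Derl3, were higher, with a median of 0.20 and a range of 0.086 to 0.79, which Hspa5 and Creld2 headed. Of the 25 genes with a promoter and no ERSE, 22 were higher, with a median of 0.19, so that both sets had nearly the same median. The 7 genes without a promoter in the RefSeq table, among them Hyou1, Fkbp10 and Ssr2, had 6 higher and a median of 0.26. Outside the 41, 7 further genes with an ERSE could be compared, of which 2 were higher, with a median of -0.19. For NELL2 overexpression the medians were 0.049 for the 8 genes with the motif and 0.073 for the 25 without. For Fn1 knockdown against NELL2 overexpression they were 0.15 (8 of 8 higher) and 0.056 (22 of 25 higher), and no difference between the sets was tested. The ERSE-II genes Herpud1 and Dnajb11, whose sites are shown above, differed by 0.38 and 0.15 for Fn1 knockdown.

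Neighbouring steps of the same route were described from 7 further lists with 121 genes, of which 118 were tested. For Fn1 knockdown, 82 were higher and 36 lower (49.5% of all genes were higher), 11 were higher by the 0.32 mark (9.32%, against 10.2% of all genes) and 5 were as much lower (4.24%, against 12.0%). The PERK arm and CHOP list, of genes tied to the integrated stress response, had 9 of 10 higher and a median of 0.15. Of the 9, 3 (Atf4, Sesn2 and Ddit3) were higher by only 0.015 or less. The 0.32 mark was passed by 1 gene upward and 1 downward, of 10, near the shares of all genes. These were Asns, of asparagine synthesis, at 55.1, 53.9 and 69.3 FPKM, and Ppp1r15a, the phosphatase subunit that ends the PERK signal, at 19.2, 12.1 and 12.1 FPKM. Ddit3, the gene of CHOP, was at 57.7, 69.0 and 57.9 FPKM, so its Fn1 knockdown value lay at the control.

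Of the other COPII and cargo receptor genes, 16 of 21 were higher with Fn1 knockdown (median 0.13), 3 of them by the 0.32 mark, and 1 was as much lower. Sec16a, which organises ER exit sites, was the single gene of the 7 lists past 2-fold with Fn1 knockdown, at 13.7, 25.4 and 29.7 FPKM, with differences of 0.84 and 1.06. The glycoprotein receptor Lman1 was at 80.5, 83.2 and 118 FPKM. Of the genes of the COPI coat and KDEL receptors, which return escaped ER proteins, 12 of 14 were higher (median 0.15), 1 of them by the 0.32 mark, with Arf1 at 176, 179 and 279 FPKM and Arcn1 at 82.3, 83.6 and 101 FPKM.

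The other translocon, signal peptidase and signal recognition genes had 7 of 18 higher and a median of -0.032, with 2 past the 0.32 mark in each direction. The signal peptidase genes Spcs2, at 21.2, 32.5 and 33.8 FPKM, and Spcs1, at 59.4, 63.2 and 40.2 FPKM, lay on opposite sides of the control with Fn1 knockdown. The oligosaccharyltransferase and calnexin cycle genes had 10 of 15 higher and a median of 0.052, with 3 higher and 1 lower by the 0.32 mark. Among them were the glucosidase gene Ganab at 45.0, 47.0 and 76.3 FPKM and the catalytic subunit gene Stt3a at 57.6, 78.6 and 84.7 FPKM.

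Of the other degradation genes, 12 of 16 were higher (median 0.10), none by the 0.32 mark, headed by Aup1 at 42.3, 44.1 and 51.2 FPKM and Selenos at 46.8, 51.9 and 55.8 FPKM. The other disulfide and collagen folding enzymes had 16 of 24 higher (median 0.12), 1 of them by the 0.32 mark. P3h1, a collagen prolyl hydroxylase, was at 39.3, 41.6 and 49.8 FPKM, and the disulfide oxidase Qsox1 at 107, 109.5 and 130.2 FPKM.

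With NELL2 overexpression, 77 of the 118 genes of the 7 lists were higher and 41 lower (52.3% of all genes were higher), 4 being higher by the 0.32 mark (3.39%, against 5.50% of all genes) and 5 as much lower (4.24%, against 4.05%). The gene past 2-fold there was Tmed2, of a cargo receptor family that cycles between ER and Golgi, at 152, 57.5 and 166 FPKM, a difference of -1.39. Ppp1r15a, at the values given above, differed by -0.63 with NELL2 overexpression. Rpn1, a structural subunit of the oligosaccharyltransferase, was at 112, 74.0 and 88.5 FPKM (-0.60).

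**Figure D4:**
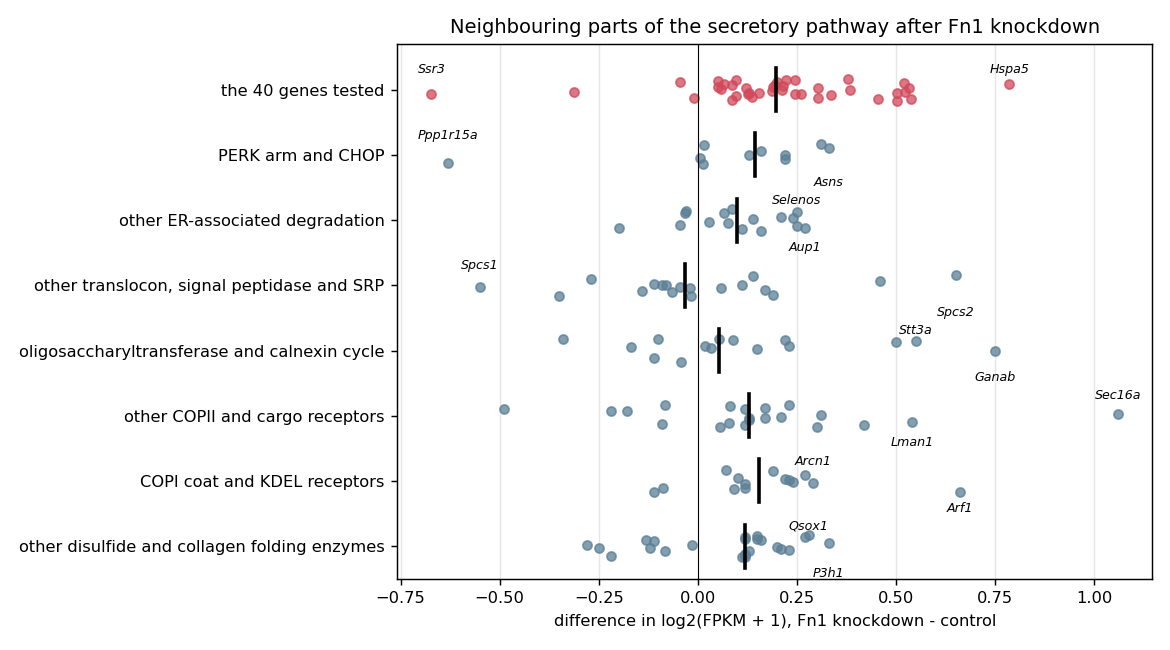
Difference in log2(FPKM + 1) between the Fn1 knockdown and control libraries for the 40 ER genes and the genes of 7 neighbouring lists, 1 point a gene, with a vertical bar at each median. The 40 genes had a median of 0.20 and the lists medians from -0.032 to 0.15, with Sec16a at 1.06 the farthest point.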

How the data were processed

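Polyadenylated RNA of 3 ST2 libraries was sequenced as 150-base paired ends. The deposited values were FPKM per gene, made by the authors. HISAT2, DESeq and the GRCm38 build are named in the submitters' processing notes, and the program that computed FPKM and its annotation are not given in the sources used here. The table holds no counts, so fragment numbers were estimated from FPKM, transcript length and the depth read from low values. Groups followed the treatment labels, and 0 value columns had no sample.

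The members, roles, lists and rules were chosen with earlier results of these data known. A gene was tested at 1 FPKM or more in either library, and differences are of log2(FPKM + 1), which understates changes of low genes. Marks were 2-fold and 25%. With 1 library a group no test was run. Intervals are 95% Clopper-Pearson intervals of the ratio and cover counting error only. Named genes were Nell2, Fn1, every member, and the 2 genes of each pathway list farthest from the control with Fn1 knockdown. Ddit3, Atf4, Sesn2, Ssr4, Tmed2, Rpn1, Col1a1, Tubb3 and the overlapping genes were named after their values were seen. March6, Srp54a and Itgam had no usable name in the table. Coordinates are those of GENCODE M21 (GRCm38), promoters those of RefSeq (GRCm38.p6), with Ero1l matched as Ero1a, and protein sequences were not used here. Python 3.11.15, pandas 2.3.3, numpy 2.4.6, SciPy 1.17.1 and Matplotlib 3.10.9 were used. The ratios, 2-fold calls and counting intervals were tested on simulated data of known depth and transcript length. The depth estimate and the promoter search were not tested in this way.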

Additional observations from a re-analysis of the deposited data

How the results depend on the processing

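No paired analysis was possible because no group held more than 1 library, and none could be left out. Of 90 alternative counts and medians at unchanged marks, 85 stayed within 1.5 times the count or 0.05 of the median, under pseudocounts of 0.1 and 5, no filter, a filter of 10 FPKM, median-of-ratios scaling and removal of the 3 members that overlap a gene on their strand. For NELL2 overexpression against control, members at the 0.32 mark were 2 higher with a pseudocount of 0.1 and 2 with no filter, and 1 lower with a pseudocount of 0.1 and 1 with median-of-ratios scaling. With no filter, 2 were lower for Fn1 knockdown against NELL2 overexpression. A 1.5-fold mark in its place left 0, 1 and 3 members higher for NELL2 overexpression against control, Fn1 knockdown against control and Fn1 knockdown against NELL2 overexpression, against 1.54%, 2.92% and 2.84% of all genes, and 0, 1 and 1 lower, against 1.05%, 3.32% and 3.56%. In place of 2-fold it called 2 in the second comparison and 4 in the third. For Fn1 knockdown against control, 11 higher and 1 lower thus became 1 and 1. The further genes with an ERSE that were higher with Fn1 knockdown numbered 5 of 22 with no filter and 1 of 2 at 10 FPKM or more, alternatives added after the data were seen. Of 360 values of single members under both pseudocounts and the scaling, 359 stayed within their counting interval's half-width. The exception was Sel1l with NELL2 overexpression, 0.50 at a pseudocount of 5. For NELL2 overexpression, Xbp1 and Sec61a1 changed sign under median-of-ratios scaling, to -0.007 and -0.003. Depth limits the low genes most, with Derl3 at 6 to 18 fragments.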

Other observations

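The 22 genes outside the 41 that held an ERSE and had a value were examined after the member values were known. Most were at or near 0 FPKM in ST2 cells, and 7 could be compared for Fn1 knockdown against control. In the order of libraries used above, Adcy3, an adenylyl cyclase, was at 8.23, 9.31 and 11.0 FPKM, and Alg12, a mannosyltransferase of glycan assembly in the ER that shares its site with the neighbouring Creld2, was at 4.28, 3.87 and 5.0 FPKM. The other 5 were lower with Fn1 knockdown, among them Hnrnpa3, an RNA-binding protein, at 174, 163 and 142 FPKM, and Spats2l at 7.31, 8.35 and 5.16 FPKM. Ero1lb, the second ER oxidase and relative of Ero1l, was listed at 1.91, 1.59 and 1.70 FPKM, below the 18.1, 19.4 and 26.7 FPKM of Ero1l in each library.

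Genes with export functions did not all lean upward with Fn1 knockdown. Mia3, which packs large cargo such as collagen at ER exit sites, was at 68.2, 50.9 and 48.1 FPKM, lower by 0.42 with NELL2 overexpression and by 0.49 with Fn1 knockdown on the log2 scale, whereas Tmed9, of the same family as Tmed2, was at 116, 126 and 155 FPKM. Both were named after their values were seen.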
